A study of Mus musculus with 13 samples.

Results

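Across 4 groups of mouse brain RNA-seq libraries, 9 genes of the complement cascade were followed: C1qa, C1qb, C1qc, C3, C4b, C3ar1, C5ar1, Serping1 and Itgam. They were taken by symbol from the deposited tables, and all 9 of 9 were found among the 21056 genes that the 4 tables share. The groups were tMCAO_MG_DE (2 libraries, 60 min of transient occlusion of the middle cerebral artery after microglial depletion), tMCAO_MG_CON (4 libraries, the same occlusion without depletion), sham_MG_DE (4 libraries, sham surgery after depletion) and sham_MG_CON (3 libraries, sham surgery without depletion). All 13 libraries came from male mice whose genotype carries CX3CR1creER and an inducible diphtheria toxin receptor (iDTR), each on 1 allele, and every group, the controls included, received 2 doses of tamoxifen at 7 to 8 weeks of age. Depleted mice then received diphtheria toxin at 50 ng per g for 3 days, starting 30 days later, and the other mice received saline. Cre driven by Cx3cr1 is active in microglia and also in other mononuclear phagocytes. A direct effect of the toxin and the loss of those cells cannot be told apart in this design. The surgery was described for mice of 6 to 8 weeks, which does not match the tamoxifen schedule, and no source used here gives the time after occlusion or the brain part sampled. The iDTR locus is written with a different number in most libraries and was read here as 1 genotype.

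Complement is a cascade of plasma and tissue proteins that tags debris, cells and synapses for removal. C1q, assembled from the A, B and C chains, starts the classical pathway by activating the protease C1r, which in turn activates the protease C1s. C1s cleaves C4, which then leads to cleavage of C3. C3 fragments are read by complement receptor 3, whose alpha chain (CD11b) is encoded by Itgam, while the small fragments C3a and C5a act on the receptors encoded by C3ar1 and C5ar1. Serping1 encodes the C1 inhibitor, which blocks C1r and C1s. In brain, C1q is made chiefly by microglia, and C3 and C4 can be made by reactive astrocytes among other cells.

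C1qa, C1qb and C1qc lie next to each other on the minus strand of chromosome 4 (GRCm38, the build named mm10 in the submitters' processing notes), at 136895917-136898803, 136880129-136886187 and 136889804-136893065. C3 (57203970-57228136) and C4b (34728380-34743882) are on chromosome 17, C5ar1 (16246743-16259540) and Itgam (128062640-128118491) on chromosome 7, C3ar1 (122847138-122856161) on chromosome 6 and Serping1 (84765387-84775444) on chromosome 2. Promoter sequence, from 250 bases before to 50 bases after the RefSeq start (GRCm38.p6), was at hand for 6 of the 9 genes: C1qb, C1qc, C3, C3ar1, C5ar1 and Itgam. C1qa, C4b and Serping1 were the other 3. The promoters of C1qb and C1qc are shown because those genes moved together in all 4 comparisons, and that of C3 because C3 departed from them. The promoter of C3ar1 is shown because its change did not pass in sham_MG_DE relative to sham_MG_CON, where theirs did. Capitals mark matches to the motifs searched.
C1qb (chr4:136886151-136886450, minus strand): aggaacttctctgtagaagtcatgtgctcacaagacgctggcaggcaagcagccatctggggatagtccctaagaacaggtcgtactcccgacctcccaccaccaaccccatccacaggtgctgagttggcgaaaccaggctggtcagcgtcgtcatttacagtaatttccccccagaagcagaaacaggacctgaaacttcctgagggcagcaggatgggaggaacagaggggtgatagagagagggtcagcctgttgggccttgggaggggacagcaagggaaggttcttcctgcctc
C1qc (chr4:136892865-136893164, minus strand): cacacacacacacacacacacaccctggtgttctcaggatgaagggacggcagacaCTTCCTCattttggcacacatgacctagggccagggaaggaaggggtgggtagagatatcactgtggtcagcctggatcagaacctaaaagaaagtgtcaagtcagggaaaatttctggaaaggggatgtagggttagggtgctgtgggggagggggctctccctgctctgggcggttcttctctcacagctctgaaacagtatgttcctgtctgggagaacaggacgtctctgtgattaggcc
C3ar1 (chr6:122856108-122856407, minus strand): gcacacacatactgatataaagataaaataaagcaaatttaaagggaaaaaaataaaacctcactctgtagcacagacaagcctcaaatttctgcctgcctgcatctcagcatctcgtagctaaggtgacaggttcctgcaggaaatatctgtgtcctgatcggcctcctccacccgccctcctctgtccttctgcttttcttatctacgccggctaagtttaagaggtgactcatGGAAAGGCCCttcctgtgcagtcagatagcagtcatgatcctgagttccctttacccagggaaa
C3 (chr17:57228087-57228386, minus strand): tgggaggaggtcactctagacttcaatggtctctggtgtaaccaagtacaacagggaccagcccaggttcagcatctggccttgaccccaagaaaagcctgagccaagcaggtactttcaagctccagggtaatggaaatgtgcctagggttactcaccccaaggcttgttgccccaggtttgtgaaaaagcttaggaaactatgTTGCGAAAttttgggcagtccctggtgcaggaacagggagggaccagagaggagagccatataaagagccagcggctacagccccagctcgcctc

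The motifs were searched on both strands. The PU.1 motif GAGGAAG was found in 2 of the 6 promoters, at -194 to -188 in C1qc and at -84 to -78 and 31 to 37 in Itgam, counted from the start site as 0, and 13.6% of 32851 mouse promoters of the same length hold it. The C/EBP motif TTGCNNAA matched in C3 at -45 to -38 (10.8% of promoters), and the NF-kB motif GGGNNTTTCC in C3ar1 at -14 to -5 (1.63% of promoters). The STAT motif TTCNNNGAA, which reads the same on both strands, and the ISRE motif GAAANNGAAA matched in 0 of the 6 promoters, against 8.3% and 3.44% of all promoters. No 2 matches overlapped. The windows of C1qb and C5ar1 held no match.

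The depletion was checked first on genes that are not members. Csf1r, the receptor that microglia need to survive, was at 6.08 and 8.51 CPM (counts per 1000000 counts) in tMCAO_MG_DE and at 76.4 to 97.4 CPM in tMCAO_MG_CON. It was at 6.1 to 16 CPM in sham_MG_DE and at 92 to 93.4 CPM in sham_MG_CON. The 10 microglial markers summed to 52.2 to 57.3 CPM in tMCAO_MG_DE, 311 to 412 CPM in tMCAO_MG_CON, 40.6 to 74.1 CPM in sham_MG_DE and 305 to 315 CPM in sham_MG_CON. The 7 markers of border macrophages, the macrophages of meninges and vessels, went the other way, with summed levels of 36.5 to 48.4, 14.1 to 24.5, 31.9 to 44.2 and 6.65 to 8.32 CPM in the same 4 groups. By 9 neutrophil markers, sham_MG_DE replicate 3 at 33.8 CPM and sham_MG_CON replicate 2 at 33 CPM stood highest. The tMCAO_MG_DE libraries came to 12.8 CPM in replicate 1 and 3.44 CPM in replicate 2, and the remaining libraries lay between 0.966 and 3.88 CPM. The library titled tMCAO_MG_CON replicate 4 carries a treatment entry that reads sham surgery, against its title and its table, and was grouped by its title. At 924 CPM of Gfap, an astrocyte marker that is not a member, it lay far above every sham_MG_CON library (51 to 91.4 CPM). Without it, as with it, 7, 2, 6 and 6 of the 9 members were called in the 4 comparisons below, in the order of the text. Without both libraries at 33 CPM or more the numbers were 7, 4, 5 and 6, and without tMCAO_MG_DE replicate 1 they were 7, 2, 6 and 6. Neuronal markers summed to 6330 to 8240 CPM over all libraries and 3 hepatocyte markers to 0.67 CPM at most, as a check of the tissue. Total counts were 16239763 to 22080367 per library.

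**Figure D1:**
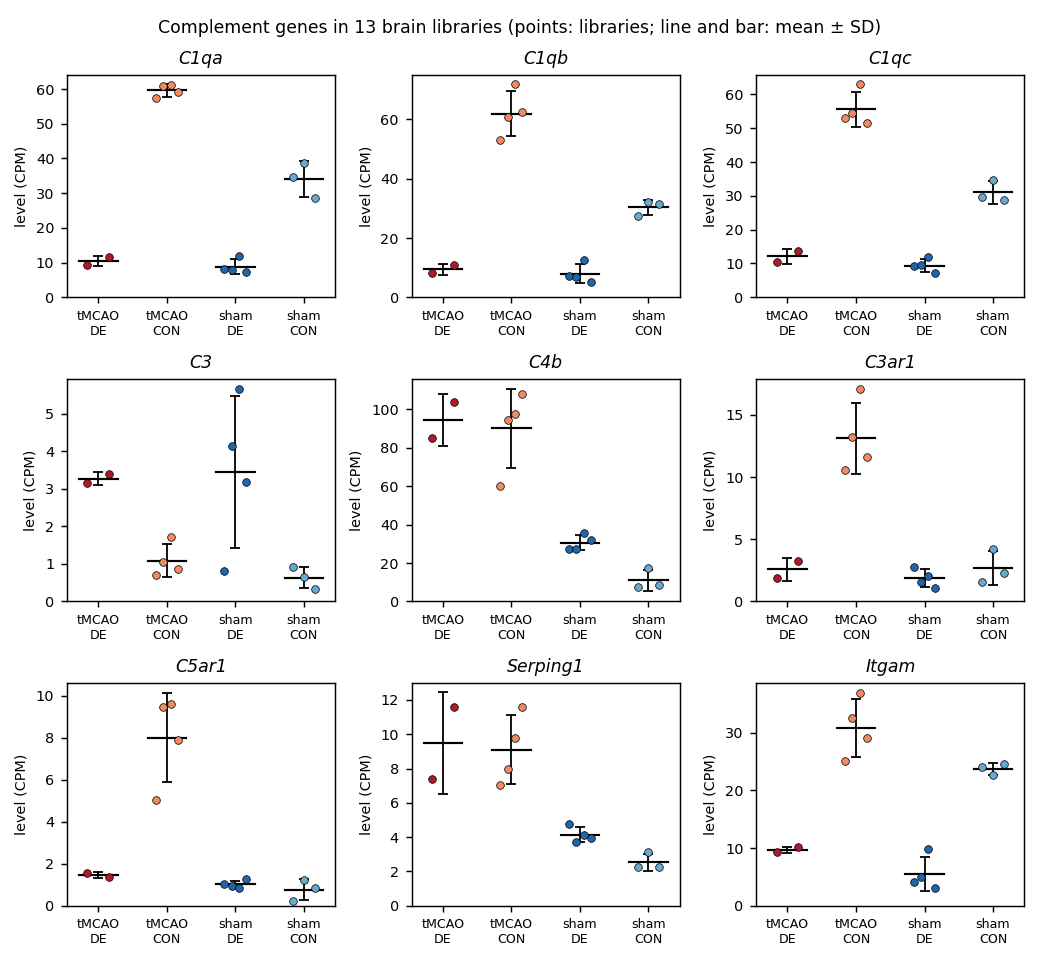
Level of each member (CPM, vertical axes from 0) in every library of the 4 groups, with the mean and SD of each group. The C1q genes, C3ar1, C5ar1 and Itgam are highest in tMCAO_MG_CON, C4b and Serping1 are high in both tMCAO groups, and C3 is high in both DE groups except in 1 sham_MG_DE library.

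Per unit of length, in FPKM (fragments per kilobase per 1000000 fragments), the 9 genes spanned a wide range. In tMCAO_MG_DE the highest level was that of C4b, at 15.2 ± 2 FPKM (SD, n = 2), ahead of C1qa at 10.2 ± 1.39 FPKM, and the lowest was that of C5ar1 at 0.294 ± 0.0297 FPKM. In tMCAO_MG_CON C1qa (59 ± 2.1 FPKM) and C1qb (58.7 ± 7.6 FPKM, n = 4) overlapped at the top, C1qc and C4b followed at 26.6 ± 2.82 and 14.7 ± 3.26 FPKM, and C3 was lowest at 0.197 ± 0.0811 FPKM. In sham_MG_DE the order began with C1qa (8.32 ± 1.99 FPKM), C1qb (7.18 ± 2.9 FPKM), C4b (4.78 ± 0.64 FPKM) and C1qc (4.28 ± 0.871 FPKM), each overlapping the next, and ended with C5ar1 at 0.2 ± 0.0342 FPKM. In sham_MG_CON C1qa (31.6 ± 4.98 FPKM, n = 3) and C1qb (26.9 ± 2.42 FPKM) overlapped at the top, Itgam stood next after C1qc at 3.17 ± 0.108 FPKM, and C3 was lowest at 0.108 ± 0.0491 FPKM, overlapping C5ar1. C4b thus stood below Itgam in sham_MG_CON and above all other members in tMCAO_MG_DE. Within C1q, C1qc made up 17.3% to 24.2% of the summed C1q FPKM over all 13 libraries, with 23% to 23.3% in tMCAO_MG_DE, 17.3% to 19.2% in tMCAO_MG_CON, 19.2% to 24.2% in sham_MG_DE and 19.1% to 19.5% in sham_MG_CON.

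The first comparison asked what occlusion did to these genes with microglia present. Of the 9 genes, 7 rose in tMCAO_MG_CON relative to sham_MG_CON and none fell (edgeR's quasi-likelihood test, adjusted p under 0.05 over all 16940 genes tested), where 5.14% of all genes rose and 8.44% changed in either direction. C3 and Itgam did not pass. The members' median log2 fold change was 1.03, and that of all genes tested was 0.02.

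The 3 recognition chains rose together, by close to the same factor. C1qa was at 57.3, 60.9, 61.2 and 59.1 CPM in tMCAO_MG_CON, against 34.7, 38.8 and 28.7 CPM in sham_MG_CON. The groups did not overlap, and the fitted change was 1.75-fold (log2 fold change 0.81 ± 0.15 SE, edgeR adjusted p = 0.0053). C1qb, at 52.9 to 71.8 CPM in tMCAO_MG_CON and 27.3 to 32.1 CPM in sham_MG_CON, rose 2.04-fold (1.03 ± 0.21, edgeR adjusted p = 0.012). C1qc rose 1.79-fold (0.84 ± 0.14, edgeR adjusted p = 0.0039). The C1qb call was lost without sham_MG_CON replicate 1 (0.96, edgeR adjusted p = 0.057). In bulk tissue, more or fewer cells of a type and more or less RNA per cell cannot be told apart.

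C4b, the component cleaved next after C1 is activated, rose more. Its 4 tMCAO_MG_CON libraries were at 60.4, 94.7, 97.4 and 108 CPM, against 7.3, 17.3 and 8.7 CPM in sham_MG_CON. All occluded libraries lay well above the highest sham library, and the change was 8.16-fold (3.03 ± 0.28, edgeR adjusted p = 5.2e-05). C4b shares 35.2% of the 50-base windows of its longest transcript with its copy C4a. No source used here says how reads from such stretches were assigned, and the share does not measure the error of the C4b counts. C4a itself did not pass in any comparison and was at 1.88 to 3.71 CPM in tMCAO_MG_CON and 2.87 to 4.01 CPM in sham_MG_CON. C3, the central component on which all pathways converge, was at 0.717 to 1.71 CPM in tMCAO_MG_CON and 0.339 to 0.912 CPM in sham_MG_CON, overlapping ranges from 13 to 29 and 6 to 17 counts per library (0.75 ± 0.59, edgeR adjusted p = 0.49).

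Both anaphylatoxin receptors rose. C5ar1, the C5a receptor, was at 5.02, 9.45, 9.59 and 7.91 CPM in tMCAO_MG_CON, against 0.215, 1.2 and 0.847 CPM in sham_MG_CON. Its 10.7-fold change was the largest of the 9 (3.42 ± 0.38, edgeR adjusted p = 0.00023), from 4 to 20 counts per sham library. C3ar1, the C3a receptor, was at 10.6 to 17.1 CPM in tMCAO_MG_CON and 1.56 to 4.25 CPM in sham_MG_CON, a 4.91-fold rise (2.29 ± 0.35, edgeR adjusted p = 0.002). The inhibitor Serping1 rose 3.59-fold, with 7.06 to 11.6 CPM in tMCAO_MG_CON and 2.25 to 3.11 CPM in sham_MG_CON (1.84 ± 0.22, edgeR adjusted p = 0.00043). Itgam, at 25.1 to 36.9 CPM in tMCAO_MG_CON and 22.6 to 24.6 CPM in sham_MG_CON, was slightly above without passing (0.38 ± 0.26, edgeR adjusted p = 0.4). Beside these rises, 2 of 10 microglial, 4 of 7 border macrophage, 5 of 8 astrocyte, 3 of 5 fibroblast and 1 of 5 endothelial markers were higher in tMCAO_MG_CON than in sham_MG_CON, and 2 of 5 neuronal and 1 of 4 oligodendrocyte markers were lower. Their part in the result was not tested.

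The same question was put to depleted brains. Only C4b and Serping1, 2 of the 9 genes, rose in tMCAO_MG_DE relative to sham_MG_DE and none fell (same test), where 6.59% of all genes rose and 12.4% changed in either direction. The members' median log2 fold change was 0.46, against -0.00 over all genes. C4b was at 85.1 and 104 CPM in tMCAO_MG_DE, against 27.4, 27.4, 35.5 and 32.2 CPM in sham_MG_DE. This was a 3.09-fold rise (1.63 ± 0.27, edgeR adjusted p = 0.0028), and tMCAO_MG_CON lay at 60.4 to 108 CPM. Serping1, at 7.38 and 11.6 CPM in tMCAO_MG_DE and 3.73 to 4.76 CPM in sham_MG_DE, rose 2.3-fold (1.2 ± 0.22, edgeR adjusted p = 0.0059), a call that was lost without tMCAO_MG_DE replicate 2 (0.83, edgeR adjusted p = 0.11).

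The C1q genes overlapped between tMCAO_MG_DE and sham_MG_DE. C1qa was at 9.39 and 11.5 CPM in tMCAO_MG_DE, against 8.16, 7.77, 11.9 and 7.35 CPM in sham_MG_DE (0.25 ± 0.18, edgeR adjusted p = 0.38). C1qb and C1qc were at log2 fold changes of 0.25 ± 0.26 (edgeR adjusted p = 0.57) and 0.37 ± 0.17 (edgeR adjusted p = 0.17). C3ar1, at 1.91 and 3.24 CPM in tMCAO_MG_DE and 1.08 to 2.81 CPM in sham_MG_DE, did not pass (0.46 ± 0.41, edgeR adjusted p = 0.51). C5ar1, at 1.56 and 1.37 CPM in tMCAO_MG_DE and 0.853 to 1.25 CPM in sham_MG_DE, lay above without overlap and did not pass either (0.51 ± 0.42, edgeR adjusted p = 0.46). Itgam was at 9.34 and 10.1 CPM in tMCAO_MG_DE, against 4.11, 5, 9.81 and 3.08 CPM in sham_MG_DE (0.83 ± 0.31, edgeR adjusted p = 0.1). It passed without sham_MG_DE replicate 3, which was also the sham_MG_DE library highest in neutrophil markers and in Csf1r (1.25, edgeR adjusted p = 0.0039). Without both sham libraries high in neutrophil markers, 4 members rose, Itgam and C1qa (0.43, edgeR adjusted p = 0.047) joining C4b and Serping1. In the same comparison of tMCAO_MG_DE with sham_MG_DE, 3 of 8 astrocyte markers (Gfap, Vim and Serpina3n), 3 of 5 endothelial markers and 1 of 5 tested monocyte markers were higher and 2 of 5 neuronal markers lower. The monocyte marker was Arg1 (4.46 ± 0.79, edgeR adjusted p = 0.0044). Their part in the result was not tested.

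**Figure D2:**
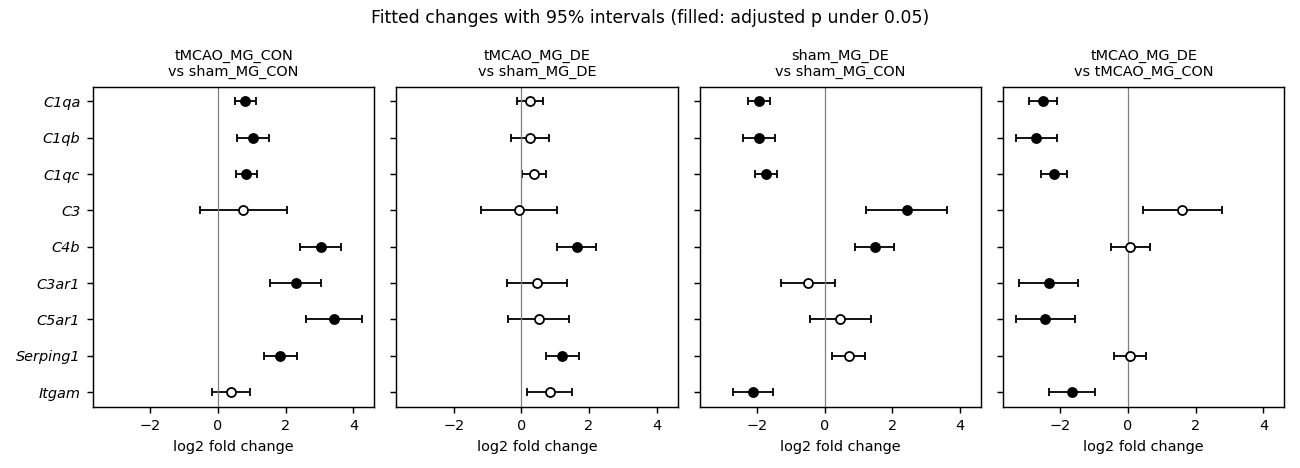
Fitted log2 fold change of each member with its 95% interval in the 4 comparisons, where filled points passed the test. In all, 7 members are filled to the right in tMCAO_MG_CON vs sham_MG_CON and 2 in tMCAO_MG_DE vs sham_MG_DE, and the C1q genes and Itgam are filled to the left in both comparisons of DE with CON.

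Whether occlusion acted differently in depleted brains was tested directly as the difference between both log2 fold changes. None of the 9 members passed (edgeR, against 0.0472% of all genes), and 5 had an unadjusted p under 0.05, as had 1647 of all 16940 genes tested. C5ar1 had the largest difference, -2.90 ± 0.58 (95% interval -4.15 to -1.66, edgeR adjusted p = 0.13). C3ar1 followed at -1.84 ± 0.54 (edgeR adjusted p = 0.33) and C4b at -1.40 ± 0.39 (edgeR adjusted p = 0.28). C1qb and C1qa, the other 2, were at -0.78 ± 0.34 (edgeR adjusted p = 0.49) and -0.55 ± 0.23 (edgeR adjusted p = 0.48). DESeq2 called 2 of the 9, C5ar1 (-2.91, DESeq2 adjusted p = 0.00031) and C4b (-1.40, DESeq2 adjusted p = 0.035), and limma on log2(FPKM + 0.1) called C5ar1 (-2.48, limma adjusted p = 0.048). Over all genes, DESeq2 called 30 higher and 81 lower for this difference, and that limma fit called 3 higher and 20 lower. For C4b, sham_MG_DE was already above sham_MG_CON while both tMCAO groups overlapped.

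Depletion without occlusion split the members. Relative to sham_MG_CON, 4 of the 9 fell in sham_MG_DE (C1qa, C1qb, C1qc and Itgam), where 4.49% of all genes fell, and 2 rose (C3 and C4b), where 6.85% rose and 11.3% changed in either direction. The members' median log2 fold change was -0.51, against -0.00 over all genes. C1qa was at 7.35 to 11.9 CPM in sham_MG_DE and 28.7 to 38.8 CPM in sham_MG_CON, 3.88-fold lower (-1.95 ± 0.15, edgeR adjusted p = 4.1e-05). C1qb was 3.83-fold lower (-1.94 ± 0.22, edgeR adjusted p = 0.00042) and C1qc 3.31-fold lower (-1.73 ± 0.15, edgeR adjusted p = 8.4e-05). Itgam was at 3.08 to 9.81 CPM in sham_MG_DE and 22.6 to 24.6 CPM in sham_MG_CON, 4.34-fold lower (-2.12 ± 0.27, edgeR adjusted p = 0.00095). All 10 microglial markers fell and all 7 border macrophage markers rose in the same comparison, 1 of 8 astrocyte markers (Gfap) rose, 1 of 5 choroid plexus and 1 of 4 oligodendrocyte markers fell, and their part in the result was not tested.

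C3 went the other way. It was at 0.811, 4.14, 5.67 and 3.19 CPM in sham_MG_DE, against 0.912, 0.658 and 0.339 CPM in sham_MG_CON. Of the 4 depleted libraries, 3 were above every control and replicate 1 lay within the control range, and the fitted change was 5.35-fold (2.42 ± 0.56, edgeR adjusted p = 0.019). The call was lost when the fit held the sham groups alone (edgeR adjusted p = 0.063), without sham_MG_DE replicate 2 (2.31, edgeR adjusted p = 0.05), without sham_MG_CON replicate 2 or 3 (2.44 and 2.12, edgeR adjusted p = 0.058 and 0.076) and without both sham libraries high in neutrophil markers (2.1, edgeR adjusted p = 0.11). C4b was at 27.4, 27.4, 35.5 and 32.2 CPM in sham_MG_DE, against 7.3, 17.3 and 8.7 CPM in sham_MG_CON, without overlap, a 2.77-fold rise (1.47 ± 0.27, edgeR adjusted p = 0.0077). Serping1 stood at 3.73 to 4.76 CPM in sham_MG_DE and 2.25 to 3.11 CPM in sham_MG_CON, also without overlap, and narrowly missed (0.71 ± 0.23, edgeR adjusted p = 0.06; DESeq2 adjusted p = 0.042). The receptors C3ar1 (-0.51 ± 0.37, edgeR adjusted p = 0.39) and C5ar1 (0.46 ± 0.42, edgeR adjusted p = 0.5) overlapped between the groups.

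In occluded brains, depletion lowered 6 of the 9 genes and raised none, where 9.26% of all genes fell and 18.6% changed in either direction. The members' median log2 fold change was -2.19, against -0.01 over all genes. C1qa was at 9.39 and 11.5 CPM in tMCAO_MG_DE and 57.3 to 61.2 CPM in tMCAO_MG_CON, 5.69-fold lower (-2.51 ± 0.19, edgeR adjusted p = 3.6e-05). C1qb was 6.57-fold lower (-2.72 ± 0.28, edgeR adjusted p = 0.00019) and C1qc 4.58-fold lower (-2.19 ± 0.18, edgeR adjusted p = 3.6e-05). Both anaphylatoxin receptors fell here. C5ar1 was at 1.56 and 1.37 CPM in tMCAO_MG_DE and 5.02 to 9.59 CPM in tMCAO_MG_CON (5.45-fold lower, -2.45 ± 0.40, edgeR adjusted p = 0.0029), and C3ar1 was at 1.91 and 3.24 CPM in tMCAO_MG_DE and 10.6 to 17.1 CPM in tMCAO_MG_CON (5.09-fold lower, -2.35 ± 0.41, edgeR adjusted p = 0.0035). Itgam fell 3.18-fold (-1.67 ± 0.32, edgeR adjusted p = 0.0054), with 9.34 and 10.1 CPM in tMCAO_MG_DE and 25.1 to 36.9 CPM in tMCAO_MG_CON. Without tMCAO_MG_DE replicate 2, which leaves 1 library assumed to vary like the other groups, the calls of C5ar1 (-2.35, edgeR adjusted p = 0.053) and Itgam (-1.72, edgeR adjusted p = 0.064) were lost.

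The other 3 members did not pass between the occluded groups. C4b (0.07 ± 0.27, 95% interval -0.52 to 0.65, edgeR adjusted p = 0.88) and Serping1 (0.06 ± 0.22, 95% interval -0.42 to 0.54, edgeR adjusted p = 0.87) overlapped. C3 was at 3.16 and 3.39 CPM in tMCAO_MG_DE, against 0.717, 1.05, 1.71 and 0.873 CPM in tMCAO_MG_CON. Both depleted libraries were above all 4 controls, and the change missed the threshold (1.60 ± 0.54, edgeR adjusted p = 0.056). It passed with DESeq2 (adjusted p = 0.032), with the tMCAO groups fitted alone (edgeR adjusted p = 0.016), without sham_MG_DE replicate 1 (edgeR adjusted p = 0.0078) and without sham_MG_DE replicate 3 (edgeR adjusted p = 0.049). In this comparison 9 of 10 microglial markers fell, 3 of 7 border macrophage, 1 of 5 monocyte and 1 of 5 neuronal markers rose, 1 of 8 astrocyte, 1 of 5 endothelial and 1 of 5 fibroblast markers fell, and their part in the result was not tested.

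Ratios within a library showed which members moved unequally with a partner gene. Each ratio is log2 of (FPKM + 0.1) of one over the other, compared by an exact two-sided permutation test within strata (525 relabellings, smallest possible p 0.0019) with adjustment over 14 tests. Library scaling largely cancels in a ratio, except at levels near the pseudocount of 0.1. These were C3 in both CON groups (means 0.197 and 0.108 FPKM) and C5ar1 in sham_MG_CON, sham_MG_DE and tMCAO_MG_DE (means 0.145, 0.2 and 0.294 FPKM). The summed C1q level was 17.8 and 18.9 times that of Csf1r in tMCAO_MG_DE, 8.81 to 9.79 times in tMCAO_MG_CON, 10 to 13.4 times in sham_MG_DE and 4.4 to 5.18 times in sham_MG_CON. The log2 ratio was higher by 1.14 with depletion (exact permutation test, adjusted p = 0.0044; 0.98 within tMCAO and 1.30 within sham) and by 0.82 with occlusion (exact permutation test, adjusted p = 0.0044). C1q therefore fell less than Csf1r upon depletion. The ratio is relative to Csf1r and does not give the change relative to other microglial genes.

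C3ar1 and the summed Itgam entries were also higher relative to Csf1r with depletion. The log2 ratio of C3ar1 to Csf1r was -0.97 ± 0.14 in tMCAO_MG_DE (SD, n = 2), -2.28 ± 0.19 in tMCAO_MG_CON (n = 4), -1.71 ± 0.60 in sham_MG_DE (n = 4) and -4.54 ± 0.61 in sham_MG_CON (n = 3). It was higher by 2.07 with depletion (exact permutation test, adjusted p = 0.0044) and by 1.51 with occlusion (exact permutation test, adjusted p = 0.0067). The ratio of Itgam to Csf1r was 1.01 and 1.28 in tMCAO_MG_DE, 0.273 to 0.369 in tMCAO_MG_CON, 0.495 to 0.587 in sham_MG_DE and 0.202 to 0.221 in sham_MG_CON, and no 2 groups overlapped. On the log2 scale it was higher by 1.61 with depletion and by 0.81 with occlusion (exact permutation test, adjusted p = 0.0044 each). The Itgam ratio adds the FPKM of 2 entries of unlike length. The shorter entry held 18.6% to 69.7% of Itgam counts in sham_MG_DE and 0% to 0.224% in sham_MG_CON. In CPM, where entry length plays no part, summed Itgam relative to Csf1r did not overlap between the sham groups. Itgam was at 4.11, 5, 9.81 and 3.08 CPM in sham_MG_DE, beside Csf1r at 7.57, 10.2, 16 and 6.1. In sham_MG_CON it was at 24, 22.6 and 24.6, beside 92, 93.4 and 92.8. The longer entry alone was at 0.166, 0.376, 1.09 and 0.173 FPKM in sham_MG_DE, beside Csf1r at 1.24, 1.72, 2.67 and 1.03. In sham_MG_CON it was at 3.2, 3.05 and 3.25, beside 15.1, 15.5 and 15.1. Relative to Csf1r, that entry overlapped between the sham groups. Its ratio was not tested. C5ar1 to C3ar1 did not pass for depletion (0.43, exact permutation test, adjusted p = 0.15) or occlusion (0.28, exact permutation test, adjusted p = 0.34).

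C3 and C4b parted under occlusion. Their log2 ratio was -4.48 ± 0.14 in tMCAO_MG_DE and -5.64 ± 0.35 in tMCAO_MG_CON, against -2.99 ± 0.83 in sham_MG_DE and -3.05 ± 0.73 in sham_MG_CON. It was lower by 2.04 with occlusion (log2 difference -2.04, exact permutation test, adjusted p = 0.0044) and did not pass for depletion (0.61, exact permutation test, adjusted p = 0.16). Set against Gfap, the intermediate filament of reactive astrocytes, C4b was lower with occlusion (-0.56, exact permutation test, adjusted p = 0.012) and higher with depletion (0.40, exact permutation test, adjusted p = 0.019). Gfap itself was at 138 ± 0.972 FPKM in tMCAO_MG_DE, 184 ± 33 FPKM in tMCAO_MG_CON, 31.4 ± 3.66 FPKM in sham_MG_DE and 14 ± 4.33 FPKM in sham_MG_CON.

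**Figure D3:**
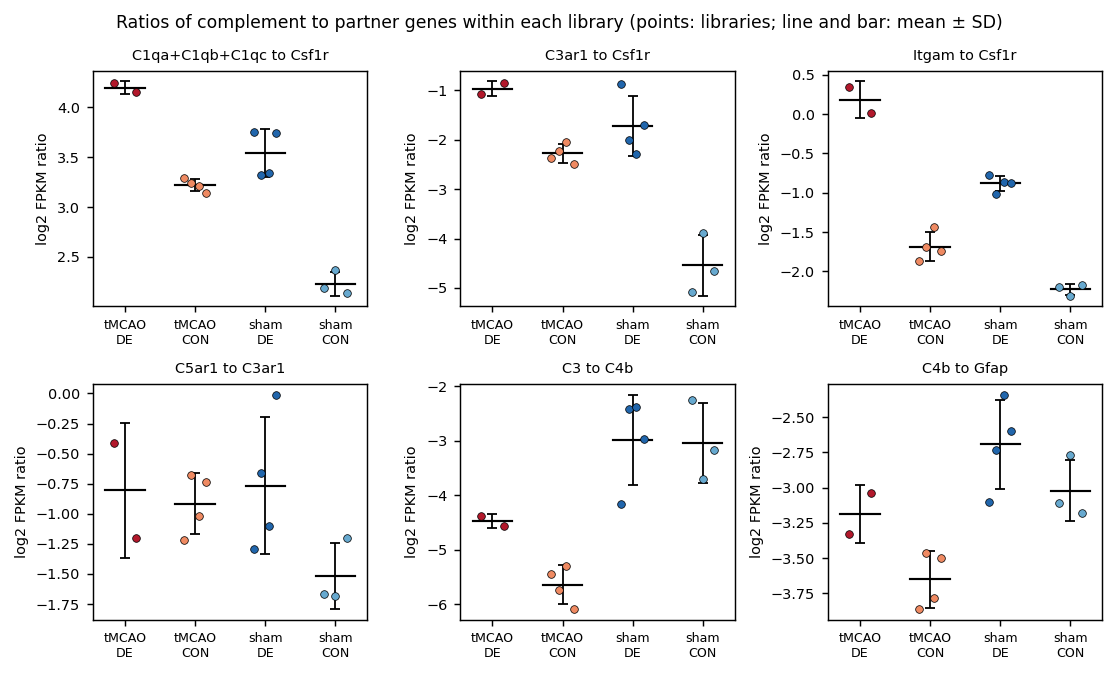
Log2 FPKM ratios of complement genes to partner genes in each library, with group means and SD. By group mean, C1q, C3ar1 and Itgam (its entries summed) stand highest against Csf1r in tMCAO_MG_DE and lowest in sham_MG_CON. For C3ar1 the DE groups overlap, with sham_MG_DE replicate 1 at -0.88 and tMCAO_MG_DE replicate 1 at -1.07. C3 stands lowest against C4b in tMCAO_MG_CON, at -6.09 to -5.30.

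Over the 13 libraries the members fell into patterns, given here as a description since libraries of a group share their treatment. On log2 CPM, C1qa, C1qb and C1qc had Pearson r of 0.991 to 0.994 with each other and of 0.949 to 0.96 with Itgam. C4b and Serping1 had r of 0.969 with each other and of 0.136 and 0.221 with C1qa. C3ar1 and C5ar1 had r of 0.9, and C3 had r of -0.639 with C1qa. Of the other genes, those most like C1qb were Olfml3 (0.99), Irf5 (0.985) and Fcrls (0.985), and those most like C1qa were Irf5 (0.986), Aif1 (0.983) and Fyb (0.982). Gfap was the most like both C4b (0.965) and Serping1 (0.969). C3ar1 was most like Gusb (0.984), C5ar1 most like Ggta1 (0.955), Itgam most like Abi3 (0.983) and C3 most like Zfp212 (0.945).

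Itgam needs a reservation about its counting. The tables hold 2 entries of that name, with implied lengths of 7.23 and 5.3 kb, and the values above are their sums. The shorter entry held 11.3% and 14.6% of the Itgam counts in tMCAO_MG_DE, 0% to 51% in tMCAO_MG_CON, 18.6% to 69.7% in sham_MG_DE and 0% to 0.224% in sham_MG_CON. The sums were 186 and 199 counts in tMCAO_MG_DE, 455 to 677 in tMCAO_MG_CON, 54 to 161 in sham_MG_DE and 377 to 447 in sham_MG_CON. In the annotation, Itgam shares 3450 exon bases with Gm49368, a gene on the same strand. Fitted apart, the longer entry did not pass between the tMCAO groups (-1.47, edgeR adjusted p = 0.061), and neither did the shorter one (-2.56, edgeR adjusted p = 0.21). Between tMCAO_MG_CON and sham_MG_CON, where the sum did not pass, the shorter entry alone passed (8.20 ± 2.17, edgeR adjusted p = 0.035), with sham_MG_CON at or near 0 counts, so that this fitted value is no bound on the change.

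**Figure D4:**
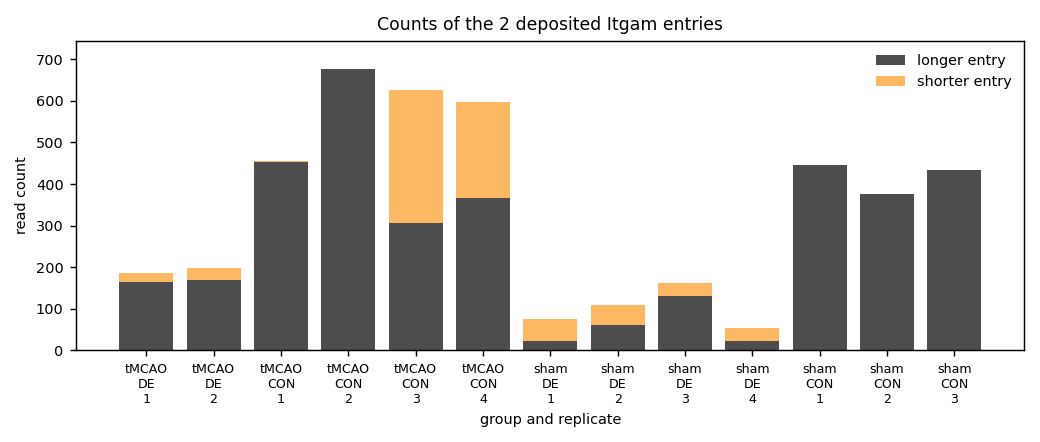
Read counts of the longer and the shorter deposited Itgam entry, stacked, in each library by group and replicate. The shorter entry holds 320 of 627 counts in tMCAO_MG_CON replicate 3 and 0 of 677 in replicate 2 of the same group.

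Beyond the 9 members, 50 further complement genes were listed, of which 39 were in all tables and 32 were tested. In tMCAO_MG_CON relative to sham_MG_CON, 5 rose and 1 fell, where 5.14% of all genes rose and 8.44% changed in either direction. Itgb2, the beta partner of Itgam in complement receptor 3, was at 10.2 to 14.1 CPM in tMCAO_MG_CON and 4.83 to 6.82 CPM in sham_MG_CON (1.12 ± 0.30, edgeR adjusted p = 0.035). Cd93, a surface protein first described as a C1q receptor (1.07 ± 0.26, edgeR adjusted p = 0.024), and the proteases C1s1 (0.85 ± 0.22, edgeR adjusted p = 0.031) and C1ra (0.71 ± 0.18, edgeR adjusted p = 0.026) also rose. Itgax, the alpha chain of complement receptor 4 (2.91 ± 0.80, edgeR adjusted p = 0.04), and Csmd2 (-0.35 ± 0.10, edgeR adjusted p = 0.048) were the other 2 and are named because the count is small, after their values were seen. These calls changed when single libraries were left out. That of Itgb2 was lost without any 1 of 6 libraries, sham_MG_CON replicates 1 to 3 or tMCAO_MG_CON replicates 2 to 4 (1.01 to 1.27, edgeR adjusted p = 0.054 to 0.13). Without sham_MG_CON replicate 3, 0 of the 32 genes were called. Calls over all genes then fell from 870 higher and 560 lower to 387 and 177.

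In tMCAO_MG_DE relative to sham_MG_DE, 5 of the 32 rose and 3 fell, where 6.59% of all genes rose and 12.4% changed in either direction. Cd93 (1.64 ± 0.28, edgeR adjusted p = 0.0032) and C1ra (0.97 ± 0.19, edgeR adjusted p = 0.0071) rose, and Csmd3 fell (-0.55 ± 0.16, edgeR adjusted p = 0.043). Clu, C1qbp, Masp2 and Csmd2, named after their values were seen, were also called. C1ra, which cleaves C1s, was thus at 13.6 and 16.6 CPM in tMCAO_MG_DE, 11.5 to 20.2 CPM in tMCAO_MG_CON, 6.09 to 8.65 CPM in sham_MG_DE and 8.69 to 9.83 CPM in sham_MG_CON, while C1s1 was at 5.07 and 6.99, 8.99 to 13.3, 3.64 to 6.34 and 5.15 to 8.55 CPM in the same groups. Without tMCAO_MG_DE replicate 2, which leaves 1 library in that group, Cd93 (1.33) and C1ra (0.83) did not pass. Far fewer genes passed over all genes as well. The Csmd3 call was lost without any 1 of 9 libraries (edgeR adjusted p = 0.053 to 0.24).

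In sham_MG_DE relative to sham_MG_CON, 1 of the 32 rose and 2 fell, where 11.3% of all genes changed in either direction. Fcna, a ficolin of the lectin pathway, was at 2.86 to 5.53 CPM in sham_MG_DE and 0.161 to 0.299 CPM in sham_MG_CON (4.0 ± 0.39, edgeR adjusted p = 0.00017). Itgb2 fell (-1.27 ± 0.31, edgeR adjusted p = 0.024), as did the lectin-pathway protease Masp1 (-0.65 ± 0.16, edgeR adjusted p = 0.026), but both calls were lost without any 1 of the sham_MG_CON libraries or of several sham_MG_DE libraries (edgeR adjusted p = 0.052 to 0.081). In tMCAO_MG_DE relative to tMCAO_MG_CON, 3 of the 32 rose and 5 fell, where 9.26% of all genes fell and 18.6% changed in either direction. Fcna rose here too, with 3.06 and 3.8 CPM in tMCAO_MG_DE and 0.192 to 0.647 CPM in tMCAO_MG_CON (2.96 ± 0.35, edgeR adjusted p = 0.00051). Itgb2 (-1.91 ± 0.36, edgeR adjusted p = 0.0053), C1s1 (-0.99 ± 0.25, edgeR adjusted p = 0.019) and Masp1 (-0.75 ± 0.19, edgeR adjusted p = 0.019) fell. The other 4 calls, named after their values were seen, were C1qbp and Csmd1 among the higher and C5ar2 and Cd55 among the lower. Fcna and C1s1 overlap antisense genes. Csf1r, the depletion check and a partner in the ratios, shares 873 exon bases with the protein-coding gene Hmgxb3 on the opposite strand. No source used here says whether the counting used strand. Without sham_MG_DE replicate 1, 9 of the 32 genes were called in sham brains. Calls over all genes then rose from 1161 higher and 760 lower to 2040 and 1685. Without tMCAO_MG_DE replicate 2, which leaves 1 library in that group, Itgb2 (-1.80), C1s1 (-1.24) and Masp1 (-0.58) did not pass in occluded brains. Without replicate 1 instead, C1s1 (-0.77) did not pass either. Far fewer genes passed over all genes as well.

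The terminal pathway, which assembles the membrane pore, and the alternative pathway gave little to measure. Of 7 terminal genes 3 were tested (Hc, C7 and C8g) and none was called in any comparison, and of 3 alternative pathway genes Cfp alone was tested and was not called.

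**Figure D5:**
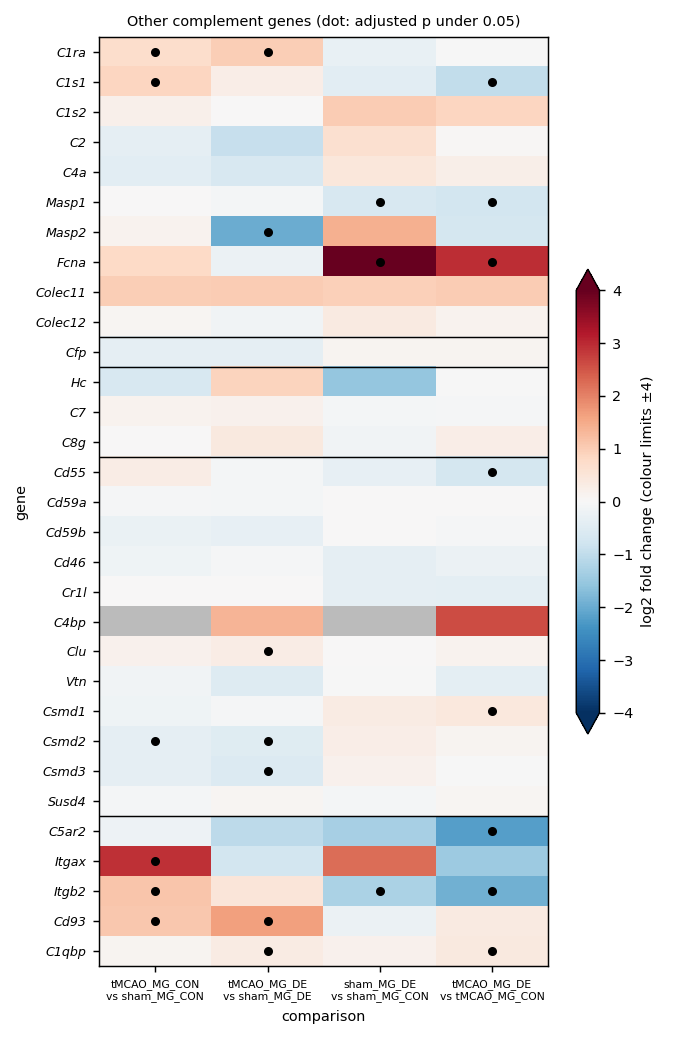
Fitted log2 fold changes of other complement genes in the 4 comparisons, grouped by role and divided by lines (recognition and proteases, alternative pathway, terminal pathway, regulators, receptors). Dots mark calls, and grey cells mark C4bp where sham_MG_CON held 0 counts. Fcna stands out in both comparisons of DE with CON, at 4.0 and 2.96.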

How the data were processed

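Total RNA of mouse brain was sequenced as paired-end libraries, per the labels' protocols. The authors deposited 4 tables with a whole-number count and an FPKM value (fragments per kilobase per 1000000 fragments) per gene and library. Cufflinks 2.1.1, Cuffdiff and build mm10 are named in the submitters' processing notes, and the aligner, the annotation and the strand setting of the counting are not stated there. The members and gene lists were chosen with earlier results of these data known.

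Of 21056 genes in all 4 tables, 16940 passed a filter (a count of about 10 in at least 2 libraries, and 15 in all), all 9 members among them, and 4116 did not. For 29 symbols listed under several entries the counts were added, and 26 names turned into dates were left out. The counts as deposited were fitted with edgeR 4.0.16 (R 4.3.3, TMM, quasi-likelihood, 4 group means) over all 13 libraries, and p-values were adjusted by Benjamini-Hochberg over the genes tested, with a threshold of 0.05. CPM used the TMM-scaled totals. The common coefficient of variation was 15.2%. Libraries were taken as separate mice, so the p-values measure the spread between these libraries. Alternatives were DESeq2 1.42.0, limma 3.58.1 on log2 FPKM with pseudocounts of 0.1 and 1, DESeq2's size factors, no filter, a replicate block, fits on the compared groups alone and libraries left out. The edgeR fit and the permutation test were tested on simulated data. Depth differed little between libraries, so counting error matters most for C3, C3ar1, C5ar1 and Serping1, which had under 100 counts in many libraries. Among other complement genes, the text names up to 4 calls per comparison with the largest change and a mean of at least 0.5 FPKM in a group compared. For 1 gene among these, and for 1 partner gene of the ratios, the values are not reported here. For each member the most alike genes were ranked among tested genes of at least 1 CPM.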

Additional observations from a re-analysis of the deposited data

Results flagged for a closer look

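One library's value stood apart within its group, out of 56 groups of values examined, where chance alone marks about 1 in 20. C1s1, the protease activated by C1r, was at 8.99 CPM in tMCAO_MG_CON replicate 1, against 12.7 to 13.3 CPM in the other 3 libraries of that group.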

How the results depend on the processing

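Of the members' values under the alternatives, 1003 kept their side of the threshold, 15 passed in addition and 12 no longer passed. A change of direction was counted only where the main or the alternative fit passed, and 1 value reversed in this sense. It was the shorter Itgam entry alone in sham_MG_DE vs sham_MG_CON (6.44, edgeR adjusted p = 0.1). Members called ranged over single libraries left out from 6 to 7 (tMCAO_MG_CON vs sham_MG_CON), 1 to 3 (tMCAO_MG_DE vs sham_MG_DE), 5 to 6 (sham_MG_DE vs sham_MG_CON), 4 to 7 (tMCAO_MG_DE vs tMCAO_MG_CON) and 0 (difference of both occlusion changes). Without sham_MG_CON 2 and sham_MG_DE 3, 4 were called in tMCAO_MG_DE vs sham_MG_DE. For the difference, DESeq2 called 2 and limma 1 with either pseudocount. Over all genes DESeq2 called 30 higher and 81 lower there. Limma called 3 higher and 20 lower with a pseudocount of 0.1, and 6 and 26 with 1. Other complement genes called ranged from 0 to 6, 1 to 8, 1 to 9 and 1 to 9 in the same 4 comparisons. Calls over all genes varied as well. In sham_MG_DE vs sham_MG_CON they were 2040 higher and 1685 lower without sham_MG_DE 1, and 357 and 234 without sham_MG_CON 3. Other complement genes called numbered 3, without tMCAO_MG_CON 4 and sham_MG_DE 1, in the first comparison, 5 with only the compared groups in the second, and 7 (DESeq2), 1 (only the compared groups) and 9 (without tMCAO_MG_CON 4 and sham_MG_DE 1) in the third. Leaving out tMCAO_MG_CON 4 with sham_MG_DE 1, fitting the Itgam entries apart, and leaving sham_MG_CON 2 and sham_MG_DE 3 out of the ratios, where all 14 differences kept their side of the threshold, were chosen after seeing the data. The cause of these changes was not tested.

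Replicate numbers did not pair the libraries: 1 of 16 same-number pairs had r over 0.1 (-0.0641 to 0.106), against -0.138 to 0.136 over 46 other pairs, and 4 libraries correlated best with one of their own number. With the replicate block, other complement genes called numbered 3, 5 and 5 in tMCAO_MG_CON vs sham_MG_CON, tMCAO_MG_DE vs sham_MG_DE and tMCAO_MG_DE vs tMCAO_MG_CON, and C3 in sham_MG_DE vs sham_MG_CON no longer passed (2.27, edgeR adjusted p = 0.051).

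With a pseudocount of 1, the depletion difference of C5ar1 to C3ar1 passed (0.29, exact permutation test, adjusted p = 0.027) and that of C4b to Gfap did not (0.22, exact permutation test, adjusted p = 0.18). Over single libraries left out, these differences ranged from 0.23 to 0.63 and from 0.33 to 0.47, and that of C3 to C4b from 0.45 to 0.81. C3, C3ar1 and C5ar1 had under 100 counts in most depleted libraries, which limits their precision.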
